A study of Homo sapiens with 40 samples.

Results

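Immediate early genes were followed in RKO cells through 10 members: IER5L, IER5, IER2, IER3, EGR1, FOS, FOSL1, JUN, JUNB and DUSP1. They are the 10 genes of the deposited count table, out of 19962, whose identifiers carry these symbols, and all 10 passed the filter on low counts that left 11428 genes for testing. IER5L and DUSP1 were chosen by their measured responses to doxycycline (Dox) in these same libraries, so their Dox responses are described here without a test, and the other 8 were taken as related genes. The study concerns IGF2BP2 and IGF2BP3, which are RNA-binding proteins that act on mRNA fate, in the setting of the unfolded protein response. RKO is a human colorectal carcinoma line with an activating BRAF mutation. Every cell carried Dox-inducible Cas9 and GFP, plus a vector with a pair of guide RNAs and a blue fluorescent marker, and was used as a sorted pool. The guides of the sgAAVS1 line target AAVS1, a non-coding control locus, and those of the sgIGF2BP2 and sgIGF2BP3 lines target the gene named. Each line was given DMSO as a control or 250 ng/mL Dox for 72 hours. The sgIGF2BP2 and sgIGF2BP3 lines were also transfected for 48 hours with 75 nM of a non-targeting siRNA (siControl) or of a pool of siRNAs against their own gene (siIGF2BP2 or siIGF2BP3). All cells received the nucleoside s4U at 250 µM for 2 hours before polyadenylated RNA was sequenced. The 10 groups have 4 libraries each, and each library is 1 culture well of the same cell line, so the p-values measure only the spread between wells. The counts take RNA of every age together, and in these bulk libraries a smaller number of expressing cells cannot be told apart from less RNA per cell.

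Immediate early genes are transcribed within minutes of a growth factor or stress signal, before any new protein has to be made. Kinases such as ERK phosphorylate factors that already sit on their promoters, among them ELK1 with SRF at CArG boxes and CREB at cyclic AMP response elements (CREs), and the mRNAs are usually short-lived through AU-rich elements in their 3′ untranslated regions. EGR1 is a zinc finger transcription factor, and FOS, FOSL1, JUN and JUNB pair to form the AP-1 transcription factor. DUSP1 is a phosphatase that switches MAP kinases off again. IER3 is a regulator of cell survival, and IER2, IER5 and IER5L belong to one protein family, of which IER5 is known as a regulator of the heat shock factor HSF1.

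The promoters of 8 of the 10 members were matched in RefSeq (GRCh38.p14), and 4 are printed because the results below turn on these genes. Each run holds the 160 bases before the transcript start, 5′ to 3′ on the gene's own strand, with CREs, short CREs (TGACG or its reverse complement), CArG boxes and TATA boxes in capitals. IER5L lies on the reverse strand at chr9:129178262-129178421, DUSP1 on the reverse strand at chr5:172771196-172771355, EGR1 on the forward strand at chr5:138465319-138465478 and IER2 on the forward strand at chr19:13150251-13150410.
IER5L: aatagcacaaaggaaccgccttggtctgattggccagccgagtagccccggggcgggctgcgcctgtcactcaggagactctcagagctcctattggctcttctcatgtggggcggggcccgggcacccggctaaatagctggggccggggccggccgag
DUSP1: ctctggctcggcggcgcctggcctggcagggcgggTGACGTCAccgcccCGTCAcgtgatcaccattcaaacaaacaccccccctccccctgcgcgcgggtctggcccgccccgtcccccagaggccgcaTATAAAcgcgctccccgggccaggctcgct
EGR1: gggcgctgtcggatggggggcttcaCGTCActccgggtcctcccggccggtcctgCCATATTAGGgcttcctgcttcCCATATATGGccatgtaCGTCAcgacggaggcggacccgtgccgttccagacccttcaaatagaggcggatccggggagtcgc
IER2: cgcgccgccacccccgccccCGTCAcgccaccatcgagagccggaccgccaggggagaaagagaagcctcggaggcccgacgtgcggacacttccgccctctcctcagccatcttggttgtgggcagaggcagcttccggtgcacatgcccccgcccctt

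The search covered 250 bases before the start of 35116 RefSeq promoters, on both strands except for the TATA box. The full CRE, TGACGTCA, was in the DUSP1 promoter alone of the 8, against 1.65% of all promoters. Its left part, TGACG, which every full CRE contains, was in 6 of 8 (IER2, EGR1, FOS, JUN, JUNB and DUSP1) against 21.2%. A CArG box was in 1 of 8, EGR1, against 1.16%, with matches at bases −105 to −96 and −83 to −74 from the start. The TATA box, TATAAA, was in 3 of 8 (FOS, JUNB and DUSP1) against 6.8%. The GC box, GGGCGG, was in 5 of 8 against 42.6%, and the ETS core, CCGGAAG, in 1 of 8, IER2, against 8.52%. None of the 8 held the AP-1 site (TGAGTCA or TGACTCA, 4.2% of promoters), the EGR site (GCGGGGGCG, 4.72%) or a heat shock element (GAANNTTCNNGAA or TTCNNGAANNTTC, 0.441%). IER5L had GC boxes as its matches and no other, and IER5 had no match at all. These matches describe the letters of the window and not the binding of a factor. Sites outside the window were not searched, so a gene without a match may still hold such a site farther away.

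By GENCODE release 29, the median transcript of the members was 2435 bases long, against 3190 bases over the tested genes, and IER5 and JUN were longer than that. Of the 10 members, 5 (IER5L, IER5, IER2, JUN and JUNB) have a single exon, against 2.04% of the 11301 tested genes whose transcripts could be measured. The AU-rich pentamer ATTTA was in the 3′ untranslated region of 9 members, all but IER2, with a median of 2.83 per kb against 1.58 per kb over the tested genes. The share of tested genes holding it was not computed, so the count of 9 has no background. Of the 10 members, 7 were above the median density of the tested genes. IER3 had the densest run, 8.14 per kb, and FOS and DUSP1 followed with 6.20 and 5.95 per kb. The longer AU-rich nonamer TTATTTATT was in 3 members (IER5, FOS and DUSP1), against 8.47% of the 11301 genes. IER5L (ENSG00000188483) spans chr9:129175552-129178262 on the reverse strand and its transcript is 2711 bases long. Antisense transcripts that are not in the count table overlap exons of IER5L, IER2 and IER3, and JUNB shares 259 bases with HOOK2 on the opposite strand. Whether the counting used strand is not stated, so reads of such partners cannot be told apart from those of these 4 genes.

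Total counts ran from 1.00e+07 to 2.48e+07 per library (median 1.35e+07), and levels are given as CPM, counts relative to the library's total after scaling by the trimmed mean of M-values. IGF2BP2 mRNA fell from 85.3 to 33.9 CPM with Dox and from 108 to 30.2 CPM with siIGF2BP2, and IGF2BP3 mRNA from 180 to 56.2 CPM and from 170 to 24.7 CPM with Dox and siIGF2BP3. IGF2BP3 mRNA also fell with Dox in sgIGF2BP2 cells, from 179 to 151 CPM. Of 8 epithelial markers, EPCAM, KRT8, KRT18 and CDX2 were present, CDH1, KRT19 and VIL1 had at most 4 counts in any library, and KRT20 had none. Immune, endothelial and fibroblast markers summed to at most 0.55 CPM in any group. Among replicate pairs, the 3 least alike involved replicate 2 of the sgIGF2BP2 Dox group. The next 3 involved replicate 3 of the siIGF2BP2 group. Differences between the DMSO groups of the 3 lines, and between the siControl groups, were called for none of the 10 members by edgeR's quasi-likelihood test at an adjusted p under 0.05 or by DESeq2, and for 0.0175% of all genes in each of these 4 comparisons. At an unadjusted p under 0.05 the counts were 0 (sgIGF2BP2 against sgAAVS1), 3 (sgIGF2BP3 against sgAAVS1) and 0 (sgIGF2BP3 against sgIGF2BP2) with DMSO, and 3 with siControl.

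The members differed widely in how abundant they were without treatment. Per kb of exon in sgAAVS1 cells with DMSO, FOSL1 stood at 336 CPM and JUN at 289 CPM, EGR1 at 152 and IER2 at 101 CPM, and JUNB at 49.4 CPM. The others were low: IER5L at 15.4, DUSP1 at 10.6, IER3 at 8.31, IER5 at 5.54 and FOS at 3.83 CPM per kb. These lengths are the union of all exons of a gene, and the order of close neighbours such as IER5 and FOS depends on that choice. The spread between wells of a group, as a coefficient of variation, ran from 2.98% for FOSL1 to 12.1% for IER3. It includes counting noise, which weighs more at the 55 to 266 counts of IER3 than at the 6126 to 15316 counts of FOSL1.

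IER5L had its highest levels in the 3 Dox groups. In sgAAVS1 cells it stood at 41.8, 41.4, 42.7 and 41.0 CPM with DMSO and at 97.4, 89.5, 99.2 and 106 CPM with Dox. In sgIGF2BP2 cells it was 41.3, 37.6, 36.1 and 44.5 CPM with DMSO and 76.1, 70.7, 70.9 and 77.4 CPM with Dox. In sgIGF2BP3 cells the values were 41.2, 33.3, 34.8 and 40.2 CPM with DMSO and 83.5, 74.1, 78.8 and 80.6 CPM with Dox. In each line every Dox library lay above every DMSO library, the line with control guides included. The log2 fold changes were 1.23 in sgAAVS1, 0.90 in sgIGF2BP2 and 1.08 in sgIGF2BP3 cells, so the rise was greatest, in value, in the control line. IER5L was one of the genes picked for this response, and no test is given. The other 7 groups had means between 36.3 CPM (siIGF2BP2) and 43.7 CPM (siIGF2BP3). From the top, the order was sgAAVS1 Dox, sgIGF2BP3 Dox, sgIGF2BP2 Dox, siIGF2BP3, sgAAVS1 DMSO, sgIGF2BP2 DMSO, sgIGF2BP2 siControl, sgIGF2BP3 DMSO, sgIGF2BP3 siControl and siIGF2BP2. The sgAAVS1 Dox libraries were apart from those of the other lines, the Dox libraries of the other lines overlapped, and neighbours among the 7 lower groups overlapped as well.

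DUSP1 moved with Dox in opposite directions in the control line and in the lines with IGF2BP guides. In sgAAVS1 cells it stood at 22.0, 19.8, 21.5 and 22.4 CPM with DMSO and at 16.6, 15.8, 14.2 and 16.4 CPM with Dox. In sgIGF2BP2 cells it was 19.3, 18.7, 18.2 and 21.2 CPM with DMSO and 26.1, 23.0, 22.3 and 26.8 CPM with Dox. In sgIGF2BP3 cells it was 21.8, 19.2, 17.5 and 20.3 CPM with DMSO and 23.4, 25.2, 25.9 and 26.1 CPM with Dox. The Dox libraries lay wholly below the DMSO libraries in sgAAVS1 cells and wholly above them in the other lines. The log2 fold changes were −0.44, 0.35 and 0.35 in the order of the lines given, as a description of the response that chose the gene. The order of its 10 groups ran from sgIGF2BP3 Dox (25.2 ± 1.24 CPM, SD, n = 4) and sgIGF2BP2 Dox (24.6 ± 2.23 CPM), which overlapped, down to sgAAVS1 Dox (15.7 ± 1.08 CPM) and siIGF2BP2 (15.0 ± 2.25 CPM), which overlapped as well.

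**Figure D1:**
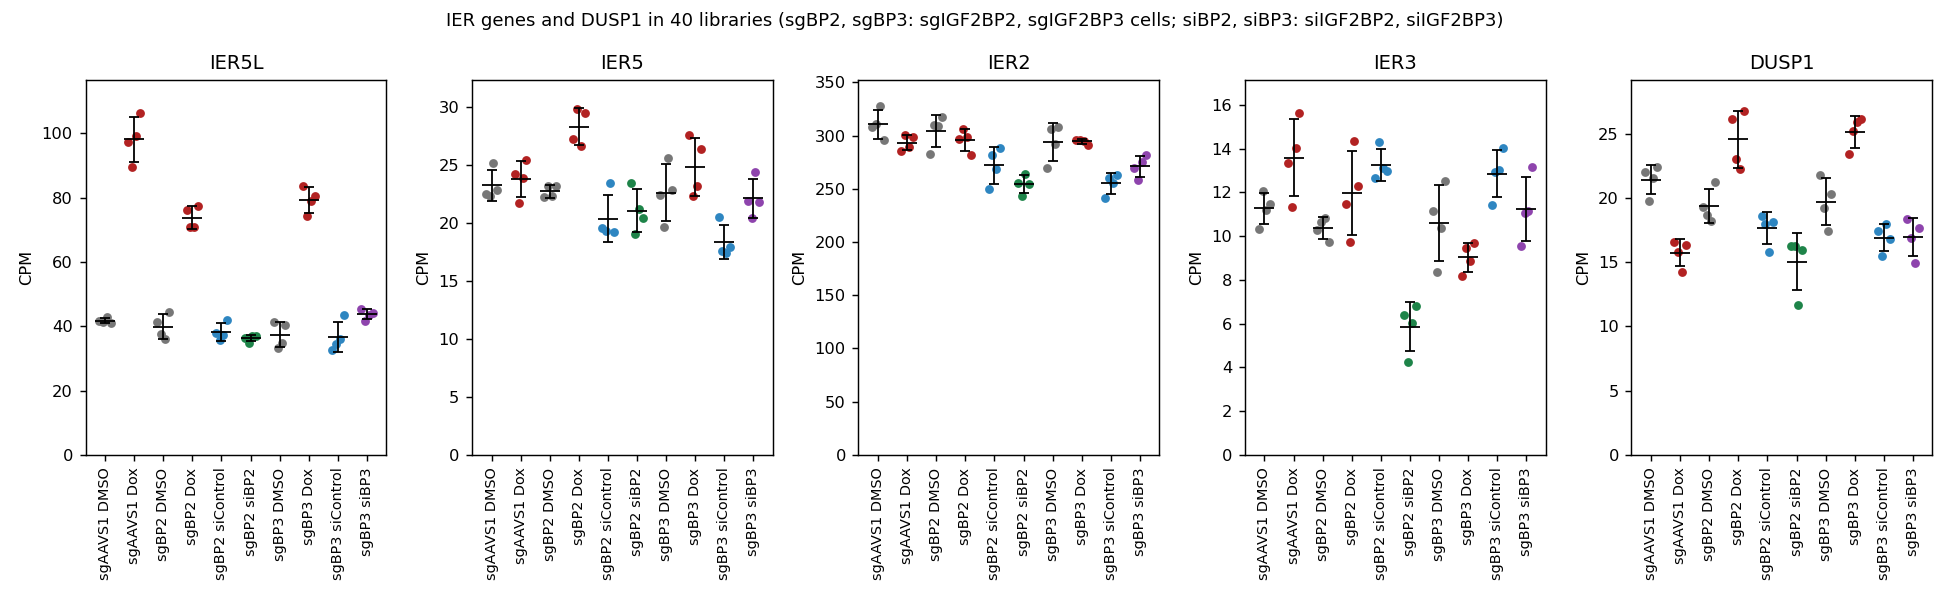
Levels of IER5L, IER5, IER2, IER3 and DUSP1 in CPM (vertical axes, from 0) in the 10 groups (horizontal axes); points are the 4 libraries of a group, and the bar and whiskers their mean and SD. IER5L in the 3 Dox groups lies between 70.7 and 106 CPM and in all other groups between 32.7 and 45.5 CPM, and IER3 is lowest with siIGF2BP2.

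Of the 8 members not picked for Dox, 3 were called in sgAAVS1 cells, beside 15.9% of all tested genes (7.25% higher, 8.68% lower). JUNB rose from 89.9 ± 5.75 to 105 ± 6.09 CPM (SD, n = 4), or by 0.22 on the log2 scale (SE 0.047, adjusted p = 0.000523 by edgeR). All its Dox libraries (96.4 to 111 CPM) lay above the DMSO libraries (83.1 to 94.7 CPM). FOSL1 fell by 0.09 and JUN by 0.11 on the log2 scale (edgeR adjusted p = 0.0376 and 0.0314), without overlap between the groups. Leaving out single libraries took these 2 calls away, for FOSL1 without DMSO replicate 2 or 3 or Dox replicate 1 or 2, and for JUN without DMSO replicate 1 or 3 or Dox replicate 2 or 3 (adjusted p up to 0.231 and 0.162). Without 1 library the count of called members ranged from 1 to 3.

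In sgIGF2BP2 cells Dox changed 4 of these 8 members, beside 20.4% of all genes (10% higher, 10.4% lower). JUNB rose again, from 86.5 ± 5.42 to 103 ± 4.78 CPM (log2 0.25, SE 0.047, adjusted p = 4.3e-05 by edgeR), and its groups did not overlap. IER5 rose from 22.7 ± 0.54 to 28.3 ± 1.59 CPM (log2 0.32, SE 0.073, edgeR adjusted p = 0.000593), with every Dox library at 26.6 CPM or more and every DMSO library at 23.2 CPM or less. FOSL1 fell from 639 ± 11.2 to 582 ± 32.4 CPM (log2 −0.13, SE 0.033, edgeR adjusted p = 0.0015), again without overlap. EGR1 fell by 0.19 on the log2 scale (edgeR adjusted p = 0.000797), but its Dox libraries, at 452, 352, 445 and 425 CPM, reached into the DMSO range of 444 to 503 CPM. The lowest of them is replicate 2, the library of the least alike pairs, and without it the change was −0.11 (edgeR adjusted p = 0.0338).

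In sgIGF2BP3 cells edgeR called none of the 8, beside 2.64% of all genes (1.64% higher, 1.01% lower), and DESeq2 called none either. At an unadjusted p under 0.05 there was 1, JUNB, whose Dox libraries (90.1 to 93.5 CPM) all lay above its DMSO libraries (81.9 to 88.2 CPM), at 0.11 on the log2 scale and an adjusted p of 0.197 by edgeR. IER2 (log2 0.00, 95% interval −0.07 to 0.08), EGR1 (−0.01, −0.09 to 0.08) and JUN (0.01, −0.06 to 0.08) were bounded tightly. The Dox effects of the lines share no library, and their differences were tested. For the 8 members, 0 differed between sgIGF2BP2 and sgAAVS1 cells (6.97% of all genes did), 0 between sgIGF2BP3 and sgIGF2BP2 cells (2.91%) and 1 between sgIGF2BP3 and sgAAVS1 cells (7.78%), by edgeR. DESeq2 called 0 in each of these comparisons, and at an unadjusted p under 0.05 there were 2, 3 and 2 in that order. The 1 gene was IER3, at 13.6 against 11.3 CPM with Dox and DMSO in sgAAVS1 cells and at 9.04 against 10.6 CPM in sgIGF2BP3 cells, a difference of −0.49 (SE 0.16, edgeR adjusted p = 0.0397). The call was lost in 12 of 21 alternative fits, 11 of which left out 1 library (adjusted p up to 0.131).

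The comparison of siControl with DMSO gave the same direction for several transcription factors in both lines where it could be made. The groups differ in transfection, in the siRNA, in DMSO and in the time of treatment, which cannot be told apart. EGR1, FOS, JUN and IER2 were lower with siControl in both lines and IER3 was higher. In sgIGF2BP2 cells 5 of 10 members were called, beside 18.4% of all genes (10.2% higher, 8.16% lower), and in sgIGF2BP3 cells 7 of 10, beside 19.4% (10.9% higher, 8.54% lower). The libraries of one line are not those of the other, but the DMSO libraries are the ones used for the Dox comparisons.

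EGR1 stood at 444, 480, 473 and 503 CPM with DMSO and at 357, 366, 392 and 377 CPM with siControl in sgIGF2BP2 cells. In sgIGF2BP3 cells it stood at 450, 466, 456 and 484 CPM with DMSO and at 346, 356, 350 and 338 CPM with siControl. The groups did not overlap in either line, and the log2 fold changes were −0.35 (SE 0.043, edgeR adjusted p = 1.92e-09) and −0.42 (SE 0.043, edgeR adjusted p = 6.16e-12). Its promoter is the one with the CArG boxes printed above, but a part of these sites in the fall was not tested. FOS, JUN and IER2 were also lower with siControl. FOS was 12.2, 13.2, 12.3 and 11.6 CPM with DMSO and 9.54, 9.38, 9.52 and 8.29 CPM with siControl in sgIGF2BP2 cells. In sgIGF2BP3 cells FOS was 12.3, 10.6, 12.0 and 12.9 CPM with DMSO and 8.40, 9.22, 9.37 and 7.79 CPM with siControl. Again no library overlapped, and the log2 fold changes were −0.42 (SE 0.094, edgeR adjusted p = 0.000724) and −0.45 (SE 0.099, edgeR adjusted p = 0.000434).

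JUN fell by 0.17 in sgIGF2BP2 cells, from 983 ± 18.8 to 872 ± 29.5 CPM (SD, n = 4), and by 0.21 in sgIGF2BP3 cells, from 954 ± 31.8 to 828 ± 44.1 CPM, on the log2 scale (edgeR adjusted p = 0.000205 and 1.06e-05). Its groups did not overlap in either line. IER2 fell by 0.17 and 0.20 (edgeR adjusted p = 0.00125 and 7.87e-05), with overlap in sgIGF2BP2 cells (283 to 317 CPM with DMSO, 249.5 to 288 CPM with siControl) and none in sgIGF2BP3 cells. The calls of EGR1, FOS, JUN and IER2 held in both lines in every alternative fit. FOSL1, which pairs with JUN in AP-1, was not called in either line, at 0.02 (95% interval −0.04 to 0.09) and 0.05 (−0.01 to 0.12) on the log2 scale, and JUNB was not called either.

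IER3 rose with siControl by 0.35 in sgIGF2BP2 cells, from 10.4 ± 0.48 to 13.3 ± 0.72 CPM, and by 0.29 in sgIGF2BP3 cells, from 10.6 ± 1.74 to 12.9 ± 1.08 CPM, on the log2 scale (edgeR adjusted p = 0.0126 and 0.0491). The second call was lost in 8 of 13 alternative fits, among them DESeq2 and those without DMSO replicate 1, 2 or 3 or siControl replicate 2, 3 or 4 (adjusted p up to 0.271), and the first without siControl replicate 2 (adjusted p = 0.0532). In sgIGF2BP3 cells IER5 fell by 0.30 and DUSP1 by 0.23 (edgeR adjusted p = 0.00318 and 0.0398). The DUSP1 call was lost without DMSO replicate 1, 2 or 4 or siControl replicate 1, 2 or 4 (adjusted p up to 0.179). In sgIGF2BP2 cells the changes of IER5 (−0.16) and DUSP1 (−0.13) were not called. IER5L stood at −0.05 (95% interval −0.18 to 0.08) and −0.03 (−0.16 to 0.11). The difference of this comparison between the lines was called for 0 of 10 members by edgeR and by DESeq2, with 0 at an unadjusted p under 0.05, and for 0.00875% of all genes.

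**Figure D2:**
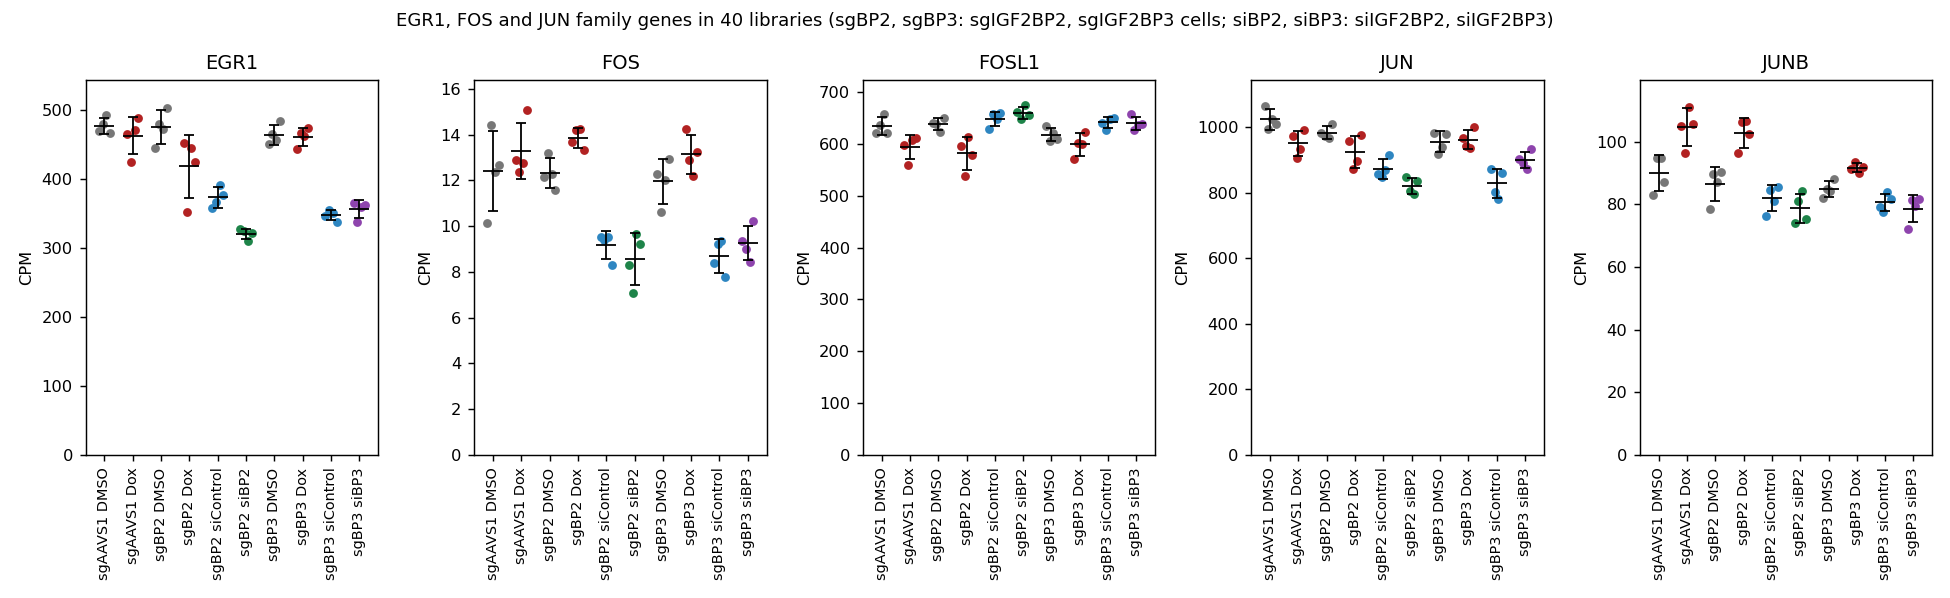
Levels of EGR1, FOS, FOSL1, JUN and JUNB in CPM (vertical axes, from 0) in the 10 groups (horizontal axes); points are the 4 libraries of a group, and the bar and whiskers their mean and SD. EGR1 lies between 310 and 392 CPM in the 4 transfected groups, against 444 to 503 CPM with DMSO in the lines compared, while FOSL1 varies little.

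With siIGF2BP2, the most negative change among the members was that of IER3. IER3 was 12.7, 14.3, 13.1 and 13.0 CPM with siControl and 6.41, 4.23, 6.02 and 6.80 CPM with siIGF2BP2. The 4 siIGF2BP2 libraries were the lowest of all 40, the next being 8.18 CPM in the sgIGF2BP3 Dox group. The change on the log2 scale was −1.17 (SE 0.12, 95% interval −1.40 to −0.93, edgeR adjusted p = 9.74e-13), and the call held in every alternative fit. With Dox in the same sgIGF2BP2 line, where IGF2BP2 mRNA also fell, IER3 stood at 12.0 ± 1.92 against 10.4 ± 0.48 CPM (SD, n = 4; log2 0.17, edgeR adjusted p = 0.291). The difference between these responses to siRNA and to Dox was not tested.

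In all, 4 of 10 members were called with siIGF2BP2, each of them lower, beside 36.8% of all genes (18.4% higher, 18.4% lower). EGR1 was 357, 366, 392 and 377 CPM with siControl and 327, 324, 310 and 321 CPM with siIGF2BP2, without overlap (log2 −0.22, SE 0.044, edgeR adjusted p = 4.16e-05). JUN fell by 0.09 on the log2 scale (edgeR adjusted p = 0.0486), a call lost without siControl replicate 1, 3 or 4 or siIGF2BP2 replicate 2, 3 or 4 (adjusted p up to 0.19). DUSP1 fell by 0.23 (edgeR adjusted p = 0.0248). Its libraries were 18.6, 18.0, 15.8 and 18.2 CPM with siControl and 16.3, 16.2, 11.7 and 16.0 CPM with siIGF2BP2, and without the low replicate 3 the change was −0.13 (adjusted p = 0.235). The call also went without siControl replicate 1 or 4. Replicate 3 of siIGF2BP2 was also in the pairs named above as less alike over all tested genes. IER2 (−0.09, edgeR adjusted p = 0.0536) did not pass the threshold but was called in 6 of 13 alternative fits. With only the groups compared in the fit, 2 members were called, IER3 and EGR1. These comparisons share the siControl libraries with the preceding ones, so the values of IER3 and EGR1 in them are not independent.

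With siIGF2BP3, 1 of 10 members was called, beside 2.34% of all genes (0.936% higher, 1.4% lower). IER5L was 32.7, 34.3, 36.1 and 43.4 CPM with siControl and 45.5, 41.7, 43.5 and 44.2 CPM with siIGF2BP3. The siControl replicate 4 reached into the siIGF2BP3 range, and the other 3 lay below it. The change on the log2 scale was 0.25 (SE 0.067, adjusted p = 0.0202 by edgeR), and the call was lost without siControl replicate 1, 2 or 3 or siIGF2BP3 replicate 1 or 4 (adjusted p up to 0.134). IER5 (0.27, edgeR adjusted p = 0.0512) and JUN (0.12, edgeR adjusted p = 0.0568) did not pass the threshold, and 3 members were called with DESeq2. IER3 was 12.9 ± 1.08 CPM with siControl and 11.2 ± 1.47 CPM with siIGF2BP3 (log2 −0.21, 95% interval −0.42 to 0.01).

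The effects of the siRNA pools, which share no library, differed for 5 of 10 members, beside 18.7% of all genes. Each difference was higher for siIGF2BP3: 0.96 for IER3 (SE 0.16, edgeR adjusted p = 4.85e-06), 0.32 for IER5L (adjusted p = 0.00963), 0.25 for EGR1 (adjusted p = 0.00161), 0.21 for JUN (adjusted p = 0.00178) and 0.18 for IER2 (adjusted p = 0.0161). The lines as well as the targets of the pools differ between these effects, and the part of each cannot be told apart. The IER2 call was lost without the siControl replicate 4 of sgIGF2BP2 cells (adjusted p = 0.0537), and the other 4 were called in every alternative fit.

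**Figure D3:**
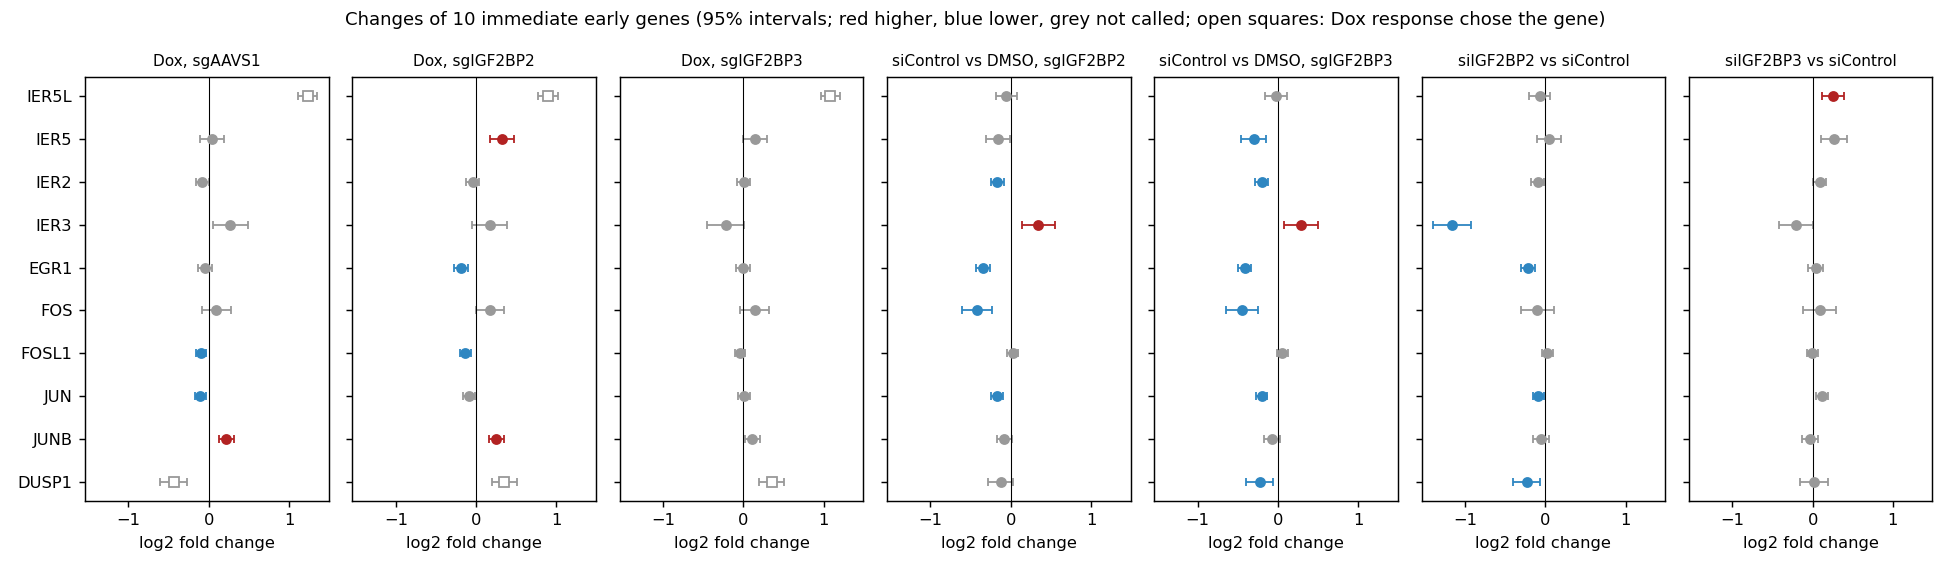
Log2 fold changes (horizontal axes) of the 10 members (vertical axis) in 7 comparisons, with 95% intervals; red is called higher, blue called lower and grey not called at an edgeR adjusted p under 0.05, and open squares mark the Dox responses that chose IER5L and DUSP1. The siControl panels of the 2 lines are alike in direction for the members called in both, and IER3 with siIGF2BP2 has the most negative value.

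A list of 35 other immediate early genes, 34 of them tested, showed mixed directions. With Dox in sgAAVS1 cells 11 rose and 5 fell, 47.1% of the list against 15.9% of all tested genes, with a median log2 fold change of 0.13 against 0.00. In sgIGF2BP2 cells 15 rose and 3 fell, 52.9% against 20.4%, with a median of 0.20 against 0.01. In sgIGF2BP3 cells 6 rose and none fell, 17.6% against 2.64%, with a median of 0.10 against 0.00. BTG2, an antiproliferative p53 target, rose in all 3 lines. It went from 13.7 ± 1.63 to 18.6 ± 0.77 CPM (SD, n = 4) in sgAAVS1 cells (log2 0.44, edgeR adjusted p = 4.14e-05), from 12.1 ± 0.80 to 31.0 ± 1.56 CPM in sgIGF2BP2 cells (1.37, adjusted p = 2.5e-23) and from 12.9 ± 1.02 to 22.0 ± 0.96 CPM in sgIGF2BP3 cells (0.77, adjusted p = 5.38e-11). The Dox effect on BTG2 in sgIGF2BP2 cells exceeded that in sgAAVS1 cells by 0.92 (edgeR adjusted p = 9.63e-09), and the difference of 0.32 for sgIGF2BP3 cells was not called (adjusted p = 0.0638). MYC, the growth-promoting transcription factor, fell from 390 ± 7.44 to 294 ± 19.3 CPM with Dox in sgAAVS1 cells (log2 −0.41, edgeR adjusted p = 1.7e-11). In sgIGF2BP2 cells MYC rose from 362 ± 5.87 to 412 ± 34.5 CPM (0.19, adjusted p = 0.000562), with overlap, and in sgIGF2BP3 cells it stood at 372 ± 21.1 against 357 ± 17.4 CPM (0.06, adjusted p = 0.495). Both lines differed from sgAAVS1 cells in this effect, by 0.59 and 0.47 (edgeR adjusted p = 1.51e-11 and 1.33e-07). MAFF, a small MAF transcription factor, rose by 0.46 in sgAAVS1 cells.

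With siControl against DMSO, 5 of the 34 rose and 9 fell in sgIGF2BP2 cells (41.2% against 18.4% of all genes, median −0.08 against −0.00), and 6 rose and 10 fell in sgIGF2BP3 cells (47.1% against 19.4%, median −0.07 against −0.00). CCN2, a secreted matricellular protein and YAP target, fell from 32.4 ± 2.45 to 16.3 ± 1.76 CPM and from 30.8 ± 1.21 to 15.2 ± 1.77 CPM in these lines (log2 −0.99 and −1.02, edgeR adjusted p = 1.05e-18 and 1.74e-18). Its relative CCN1 fell from 108 ± 1.42 to 74.2 ± 5.08 CPM in sgIGF2BP3 cells (−0.55). RHOB, a small GTPase, rose by 0.63 and 0.60. The siIGF2BP2 pool raised 9 and lowered 7 (47.1% against 36.8% of all genes, median 0.08 against 0.01), among them MYC (384 ± 17.9 to 271 ± 9.53 CPM, log2 −0.50, edgeR adjusted p = 7.29e-16) and KLF6, a Krüppel-like factor (0.43). The siIGF2BP3 pool raised 3 and lowered none (8.82% against 2.34%, median 0.06 against 0.00), with TRIB1 at 0.31 and CCN2 at 0.30.

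**Figure D4:**
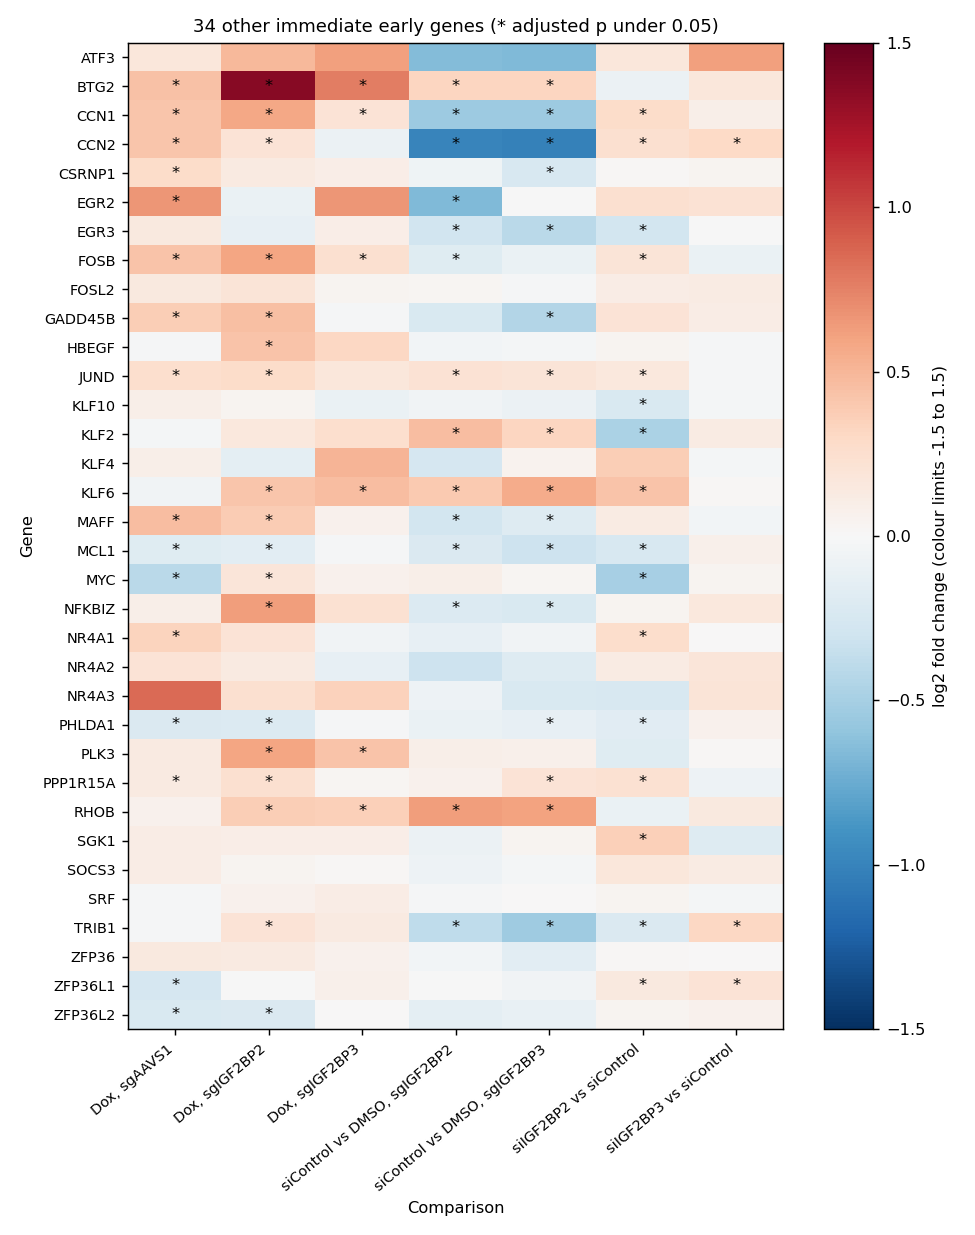
Log2 fold changes of the 34 other immediate early genes (vertical axis) in 7 comparisons (horizontal axis), as colour from −1.5 to 1.5, with an asterisk at an edgeR adjusted p under 0.05. CCN2 is the darkest blue with siControl in both lines, and BTG2 the darkest red with Dox in sgIGF2BP2 cells.

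Upstream of these genes, 22 kinases and transcription factors of the MAP kinase pathway were tested. With siIGF2BP2, 1 rose and 7 fell, 36.4% of the list and thus near the 36.8% of all tested genes (median −0.07 against 0.01). MAPK14, the kinase p38 alpha, fell from 74.7 ± 2.28 to 49.8 ± 1.28 CPM (log2 −0.58, edgeR adjusted p = 1.44e-17). With Dox in the same line MAPK14 stood at 74.5 ± 1.05 against 72.1 ± 4.00 CPM (log2 0.04, edgeR adjusted p = 0.522). With Dox, 1 rose and none fell in sgAAVS1 cells (4.55% against 15.9% of all genes, median −0.02), and 1 rose and 3 fell in sgIGF2BP2 cells (18.2% against 20.4%, median −0.00). By edgeR 0 were called with Dox in sgIGF2BP3 cells (2.64% of all genes, median −0.02) and 0 with siIGF2BP3 (2.34% of all genes, median −0.02), with 4 at an unadjusted p under 0.05 in each. With siControl, 4 rose and 1 fell in sgIGF2BP2 cells (22.7% against 18.4%, median 0.05) and 3 rose in sgIGF2BP3 cells (13.6% against 19.4%, median 0.06).

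A list of 15 other genes, made up of dual-specificity phosphatases, Sprouty and SPRED genes, was also read. With Dox, 4 fell and none rose in sgAAVS1 cells (26.7% against 15.9% of all genes, median −0.05), and 4 rose and none fell in sgIGF2BP2 cells (26.7% against 20.4%, median 0.13). In sgIGF2BP3 cells edgeR called 0 (2.64% of all genes, median 0.05), with 4 at an unadjusted p under 0.05. DUSP6, an ERK phosphatase, fell with Dox from 135 ± 7.39 to 106 ± 3.47 CPM in sgAAVS1 cells (log2 −0.34, edgeR adjusted p = 1.62e-09) and rose from 112 ± 5.23 to 142 ± 4.99 CPM in sgIGF2BP2 cells (0.35, adjusted p = 3.03e-10). In sgIGF2BP3 cells DUSP6 stood at 118 ± 4.90 with DMSO and 127 ± 3.38 CPM with Dox (0.10, not called). Its DMSO level was already lower than in sgAAVS1 cells, by 0.27 in sgIGF2BP2 and by 0.19 in sgIGF2BP3 cells on the log2 scale (edgeR adjusted p = 3.61e-05 and 0.0445), and it is 1 of only 2 genes called in each of these DMSO comparisons. Set against the sgAAVS1 line, the Dox effect on DUSP6 was higher by 0.69 with IGF2BP2 guides and 0.44 with IGF2BP3 guides (edgeR adjusted p = 8.91e-15 and 1.51e-07), which includes that difference in the DMSO level.

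For DUSP5, a nuclear phosphatase of ERK, Dox gave a rise from 55.0 ± 3.20 to 83.4 ± 8.25 CPM in sgIGF2BP2 cells (log2 0.60, edgeR adjusted p = 3.05e-13), a fall by 0.20 in sgAAVS1 cells (adjusted p = 0.011) and a change of 0.15 in sgIGF2BP3 cells that was not called. The differences from the Dox effect in the sgAAVS1 line were 0.80 and 0.36 for IGF2BP2 and IGF2BP3 guides (edgeR adjusted p = 2.63e-11 and 0.00356). With siIGF2BP2, 2 of the 15 rose and 4 fell (40% against 36.8% of all genes, median −0.06), with DUSP5 at −0.40. With siIGF2BP3, 1 rose, DUSP6, at 0.15 (6.67% against 2.34%, median 0.09). With siControl 5 rose and 1 fell in sgIGF2BP2 cells (40% against 18.4%, median 0.17). In sgIGF2BP3 cells 6 rose and 2 fell (53.3% against 19.4%, median −0.07). Among those called in both lines, DUSP3 stood at 0.26 and 0.37 and DUSP6 at −0.29 and −0.49.

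The genes whose group means most resembled those of IER5L were sought among 9948 tested genes by Pearson's r over the 10 groups. They were ULBP2 (0.957), ABHD4 (0.951), ARHGAP39 (0.941), PKM (0.940) and ZNF670 (0.939). IER5L varies over the groups mainly through the Dox responses that chose it, so these values only describe a shared rise with Dox. All 5 are higher in value with Dox in each line, but by far less than IER5L, as in ABHD4 at 21.5 ± 1.65 and 26.1 ± 3.83 CPM with DMSO and Dox in sgAAVS1 cells (SD, n = 4). The choice of measure decided the names: Spearman's rho shared 1 of its top 5, ABHD4, and correlations of the deviations from the group means over the 40 libraries shared 0 of 5.

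Within groups, the members moved together only loosely from well to well. Over the 40 libraries, deviations of log2 CPM from the group means had a median r of 0.15 for the 45 pairs of members, from −0.35 to 0.68, beside −0.00 for all pairs of tested genes. EGR1 and FOSL1 had the highest value (0.68), followed by IER5L and JUN (0.57), IER3 and FOS (0.54) and JUN and DUSP1 (0.51). JUNB and DUSP1 had the lowest (−0.35). EGR1 and FOSL1 were both lowest of their group in sgIGF2BP2 Dox replicate 2 (352 and 538 CPM), the library of the least alike pairs. Their r without that library was not computed. Genes of 1 library share its depth and its well, so these values of r are a description.

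**Figure D5:**
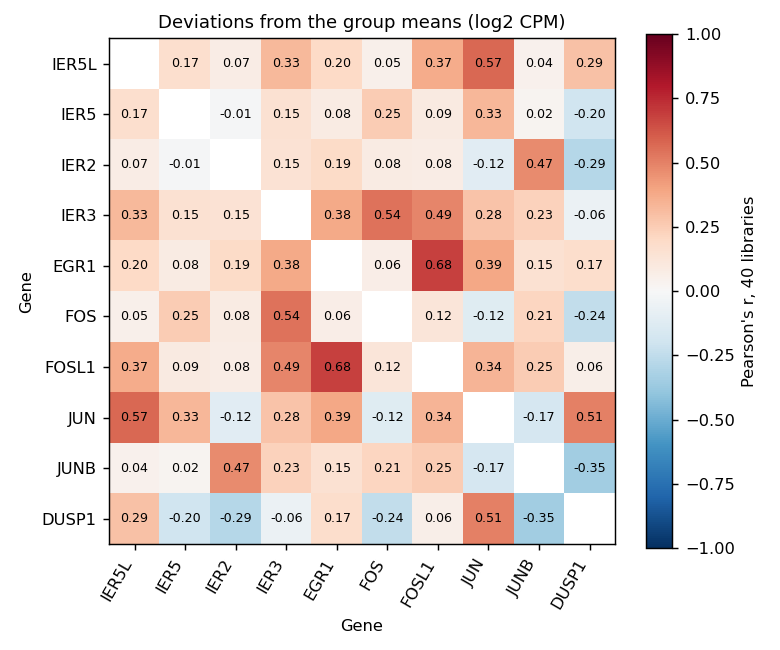
Pearson's r between the deviations of members from their group means (log2 CPM, 40 libraries), as colour and as a printed value for each pair of members on the axes. EGR1 with FOSL1 has the highest r, 0.68, and JUNB with DUSP1 the lowest, −0.35.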

How the data were processed

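The authors deposited whole-number read counts per gene for 40 libraries, without normalization. The submitters' processing notes name bcl2fastq 2.20.0.422, STAR 2.7.5c and hg38, and the counting tool and annotation are not given in the sources used here. From the counts, genes were filtered with edgeR 4.0.16 (filterByExpr by group), scaled by the trimmed mean of M-values and fitted with 1 coefficient per group over all 40 libraries (glmQLFit, glmQLFTest, R 4.3.3), with Benjamini-Hochberg adjustment over all 11428 genes and a threshold of 0.05. The scripts were tested on simulated data. Alternatives were DESeq2 1.42.0, its size factors, no filter, the replicate number as a block, only the compared groups, and leaving out each library. No covariate was used. Exons come from GENCODE 29. Symbols were found for 19380 identifiers. The members, the 3 lists and the likeness rule were chosen with earlier results of these data known. The rule names all members, up to 2 rises and 2 falls per list and comparison, and the 5 genes most like IER5L whose log2 CPM averaged 2 or more. DUSP6, DUSP5, MAPK14, BTG2 and MYC in comparisons outside that rule were chosen after their values were seen. Some genes that this rule picks are not reported here.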

Additional observations from a re-analysis of the deposited data

Results flagged for a closer look

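The 10 members in the 10 groups give 100 sets of 4 values, which share libraries and are not independent. In 4 of these sets, 1 library stood apart from the other 3 by Dixon's criterion, which chance meets in about 1 set in 20. IER5 stood at 23.4 CPM in sgIGF2BP2 siControl replicate 3, against 19.2 to 19.6 CPM in the others, and at 20.5 CPM in sgIGF2BP3 siControl replicate 1, against 17.4 to 17.9 CPM. FOS stood at 8.29 CPM in sgIGF2BP2 siControl replicate 4, against 9.38 to 9.54 CPM. DUSP1 stood at 11.7 CPM in siIGF2BP2 replicate 3, against 16.0 to 16.3 CPM. That library was also less like the rest of its group over all tested genes.

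Effects that differed between lines or between siRNA pools were also marked, each by edgeR's test of the difference itself. For the siRNA effects the line and the pool change together. The Dox effect on IER3 was lower in sgIGF2BP3 than in sgAAVS1 cells by −0.49 (log2). The siRNA effect was higher for siIGF2BP3 than for siIGF2BP2 by 0.32 for IER5L, 0.18 for IER2, 0.96 for IER3, 0.25 for EGR1 and 0.21 for JUN.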

How the results depend on the processing

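Of 30 called results on members, 20 were called in every alternative fit and 10 were lost in at least 1. Of 60 results not called, 54 stayed so, and no called result changed direction. These tallies leave out the Dox responses of IER5L and DUSP1 and the difference of Dox effects between sgIGF2BP3 and sgIGF2BP2 cells. They also leave out the difference of siControl effects and the comparisons of lines under DMSO or siControl. With siIGF2BP3, 1 member was called, against 3 with DESeq2's Wald test, 3 with no filter on low counts and 3 in the fit of only the compared groups. With siIGF2BP2, 4 became 2 in the fit of only the compared groups, and 5 with DESeq2's Wald test, with its size factors and with no filter. The difference of Dox effects between sgIGF2BP3 and sgAAVS1 cells went from 1 to 0 with DESeq2's Wald test, and that between sgIGF2BP3 and sgIGF2BP2 cells from 0 to 1 with no filter. Leaving out 1 library each, the counts were 1 to 3 (Dox, sgAAVS1), 4 to 5 (Dox, sgIGF2BP2), 0 to 0 (Dox, sgIGF2BP3), 2 to 4 (siIGF2BP2), 0 to 2 (siIGF2BP3), 4 to 6 and 5 to 6 (siControl in sgIGF2BP2 and sgIGF2BP3 cells), 0 to 1 for both of these differences of Dox effects, and 4 to 5 (difference of siRNA effects). The cause was not tested.

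Replicate numbers gave little sign of pairing the samples: deviations of same-numbered samples correlated above 0.1 in 0 of 28 pairs of samples. In siControl against DMSO of sgIGF2BP2 cells, however, the values were 0.09, 0.08, 0.04 and 0.04. There, 4 of 4 siControl samples were most like the DMSO sample of their own number. In the other comparisons this held for 0 to 2 samples. With the replicate block, 3 members were called with siIGF2BP3 and 5 with siIGF2BP2.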
